A study of Mus musculus with 34 samples.

Results

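The genes described here carry out or serve autophagy and lysosomal degradation in mouse muscle and liver. They were chosen as all probe sets that the array's annotation assigned to 1 of 10 gene symbols: Ulk1, Bnip3, Sqstm1, Map1lc3a, Map1lc3b, Gabarapl1, Ctsl, Ctsd, Lamp1 and Lamp2. The rule found 18 of the 22690 probe sets on the array. Of these, 17 passed the filter on dim probe sets and were tested, and 1 of the 4 Map1lc3b probe sets (1428024_at) was too dim in every group, at 11.2 to 66.8 intensity units per array.

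The study measured RNA from 34 mouse tissue samples, each on 1 Affymetrix array, to compare muscle with no glycogen synthase, or with too much of it, with wild type (WT). At 3 months of age there were 4 WT and 4 muscle glycogen synthase knockout (MGSKO) samples of anterior tibialis, 5 WT and 3 MGSKO samples of medial gastrocnemius, and 4 WT and 4 MGSKO samples of liver. At 8 months there were 5 WT samples of medial gastrocnemius and 5 from GSL30 mice, which the labels call overexpressing for glycogen synthase. The labels name a mixed C57BL6/129SV strain for the tibialis samples, state no strain for the others, and name neither the animal behind an array nor the promoter that drives the transgene. P-values therefore measure the spread between these samples, which may be technical, and MGSKO and GSL30 mice differed in age as well as genotype.

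Autophagy encloses cell material in a membrane, which the Ulk1 kinase complex starts and which proteins of the Atg8 family (the products of Map1lc3a, Map1lc3b and Gabarapl1, among others) coat and extend. Receptors such as Sqstm1 (p62) and Bnip3 tie cargo, ubiquitinated protein or mitochondria, to that membrane, and the closed vesicle fuses with a lysosome, where cathepsins degrade its content behind a membrane rich in Lamp1 and Lamp2. In muscle, lysosomes also take up glycogen, which acid alpha-glucosidase (Gaa) hydrolyses, and loss of Gaa or of Lamp2 causes muscle disease with autophagic vacuoles.

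Levels are intensities in the array's own units, scaled before deposit, as the values show, to nearly the same trimmed mean on each array (1000.34 to 1000.49). Array medians ranged from 296.4 to 440.3. In the samples labelled MGSKO, the brighter Gys1 probe set (muscle glycogen synthase) read 34.2 to 72.5 in tibialis against 8184 to 9958 in WT, and 58.1 to 165 in gastrocnemius against 3955 to 6378. In GSL30 it read 7896 to 10404 against 5840 to 7185. The 3-month gastrocnemius arrays held liver transcripts: the summed intensity of 11 hepatocyte genes was 49364 to 722695 in WT and 46068 to 165904 in MGSKO, against 1701 to 2859 over the tibialis arrays and 492319 to 640314 over the liver arrays. WT gastrocnemius array 2, the highest of these, also stood apart in the sum of 10 fast-fibre genes, at 1901850 against 380545 to 542899 on the other 4 arrays of its group. At 8 months the hepatocyte sum was 6575 to 29623 in WT and 2337 to 6158 in GSL30. The fast-fibre sum was 503342 to 586547 in WT tibialis and 884 to 1348 in WT liver, as the tissue labels have it. None of the hepatocyte or macrophage markers had a group mean of 0.

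In tibialis without glycogen synthase, the initiating kinase, the mitochondrial receptor, both Map1lc3 genes and cathepsin L read 0.727 to 0.780 times WT by their brightest probe sets, but no probe set of the 10 genes passed the test across the array. Here 15 of the 17 tested probe sets had the lower mean in MGSKO. Taking the brightest probe set of each gene, 9 of 10 were lower, with a median log2 difference of -0.28, against 45.5% lower and a median of 0.03 over 8259 genes; the count was 9 under each of the 3 scalings tried. At an adjusted p under 0.05 (limma, Benjamini-Hochberg over the 13576 probe sets tested), 0 of the 17 were called where 1.4% of all probe sets were; at an unadjusted p under 0.05 the count was 7 of 17, against 15% of all. The 2 groups did not overlap for 6 of the 17 probe sets, all lower, against 10.1% of all. The smallest difference called anywhere on the array was 0.48 on the log2 scale, which only 1 of these probe sets exceeded in size. In bulk tissue, fewer cells of a type and less RNA per cell cannot be told apart.

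Ulk1, the kinase that starts autophagy, read 2823, 2484, 2328 and 1924 in the 4 WT tibialis arrays and 1957, 1719, 1670 and 1605.5 in the 4 MGSKO arrays (probe set 1448370_at). The knockout arrays lay below WT except that the highest of them passed the lowest WT array. The log2 difference was -0.44 (SE 0.13, limma adjusted p = 0.170). The second Ulk1 probe set (1416504_at) differed by -0.31 with wider spread (SE 0.24).

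Bnip3, a receptor on the outer mitochondrial membrane, read 13998, 12570, 12056.5 and 12359 in WT tibialis and 9759, 9506, 9688 and 9709 in MGSKO. All 4 knockout arrays lay below all WT arrays, and their own spread was narrow (9665.5 ± 110, SD, n = 4, against 12746 ± 861). The log2 difference was -0.40 (SE 0.10, limma adjusted p = 0.0910). Sqstm1, the receptor for ubiquitinated cargo, is itself degraded by autophagy. Its groups overlapped, at 11522.5 to 13609 in MGSKO and 13083 to 16373 in WT, with a difference of -0.19 (SE 0.11).

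Map1lc3a (LC3A) read 7005, 6392.5, 6495 and 5681 in WT tibialis and 5064, 4495, 4692 and 4465 in MGSKO. Every knockout array was below every WT array, with a log2 difference of -0.44 (SE 0.11, limma adjusted p = 0.0877). Map1lc3b (LC3B), the usual marker of autophagosomes, had the smallest p of the 10 genes. Its probe set 1415928_a_at read 6337, 6384, 7325 and 5792 in WT and 4693, 4280, 4672.5 and 4495 in MGSKO. Again no knockout array reached a WT array; the difference was -0.50 (SE 0.11) and the limma adjusted p = 0.0591. The other tested Map1lc3b probe sets, 1415929_at and 1415930_a_at, differed by -0.36 and -0.37, also without overlap (limma adjusted p = 0.151 and 0.184). The third member of this family, Gabarapl1, gave -0.16 (SE 0.14) and -0.41 (SE 0.21) by its probe sets 1416419_s_at and 1416418_at, and its groups overlapped.

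The lysosomal side was uneven. Ctsl, a cysteine protease (cathepsin L), read 5294, 5817, 5753 and 6047 in WT tibialis and 4361, 4289, 4607 and 4366 in MGSKO. The groups did not overlap, and the log2 difference was -0.37 (SE 0.10, limma adjusted p = 0.107). Ctsd, the aspartic protease cathepsin D, was close in the 2 groups (11642 ± 319 in WT, 10993 ± 1109 in MGSKO, SD, n = 4), with a difference of -0.09 (SE 0.11). Lamp1, a heavily glycosylated protein of the lysosomal membrane, differed by -0.12 (SE 0.11). The 4 probe sets of Lamp2, its relative that is needed for vesicle fusion, fell on both sides of WT, at 0.24, -0.08, -0.02 and 0.15, each with overlapping groups. By brightest probe set the log2 differences of Ulk1, Bnip3, the Map1lc3 genes and Ctsl lay between -0.44 and -0.36, those of Sqstm1 and Gabarapl1 at -0.19 and -0.16, and those of Ctsd, Lamp1 and Lamp2 between -0.12 and 0.24.

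**Figure D1:**
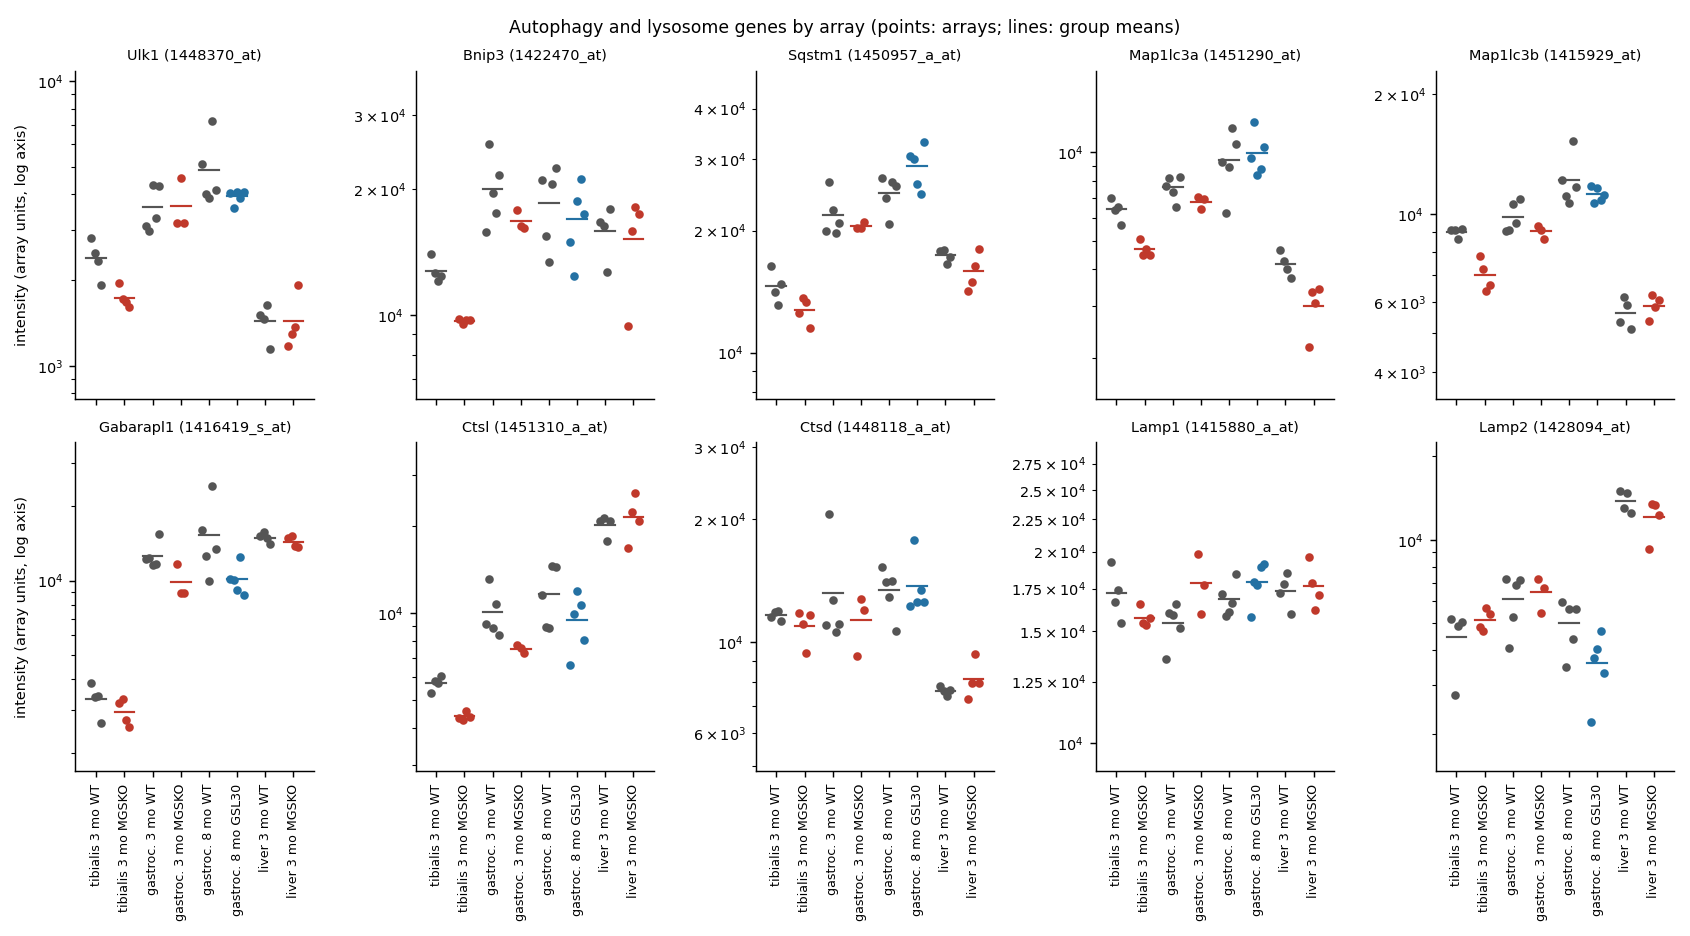
Intensity on each array (points, log axis) and group means (lines) for the brightest probe set of each of the 10 genes in the 8 groups (grey WT, red MGSKO, blue GSL30). In tibialis the red points of Bnip3, Map1lc3a, Map1lc3b and Ctsl lie below all grey points, while those of Ctsd, Lamp1 and Lamp2 are mixed with them.

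Apart from Ulk1, whether these 5 genes passed depended on settings of the test. Map1lc3b (1415928_a_at) was called with a pseudocount of 200 (limma adjusted p = 0.0379), a stricter filter, at the 60th percentile (0.0285), a joint fit of all 34 arrays (0.0123), a mean-variance trend with robust estimation (0.0190), array weights (0.0292) and without WT array 4 (0.0405). Map1lc3a was called under 3 of these settings, Bnip3 under 2 and Ctsl under 1, with limma adjusted p between 0.0183 and 0.0458. Ulk1 was called under none; its limma adjusted p ranged from 0.0616 to 0.339. In simulated data with the spread of the tibialis arrays, the same test recovered 79.5% of probe sets changed 2-fold, a larger change than any reading of these 10 genes.

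Markers of other cells in the same arrays moved in part with genotype. The mean log2 level of 13 macrophage genes, cells rich in lysosomes, was 9.56 ± 0.26 in WT and 9.55 ± 0.15 in MGSKO tibialis (SD, n = 4), and their summed intensity was 11260 to 17491 and 12168 to 15580. The summed intensity of 8 endothelial genes was 12423 to 14939 in WT and 17151 to 20372 in MGSKO, without overlap. Of the 8, 7 were higher, each at an unadjusted limma p under 0.05 (15% of all probe sets), with a median of 0.46, though none passed the test. The summed intensity of 8 slow-fibre genes was 17355 to 24541 and 41976 to 50641, also without overlap, with 1 of the 8 called (Myl3, a slow myosin light chain, which rose by 2.29 on the log2 scale, SE 0.22, limma adjusted p = 0.00143). The median difference of those 8 genes was -0.03. Of 8 fibroblast genes 6 were lower, with a median of -0.28 and 1 called (Fmod, a matrix proteoglycan), and of 10 fast-fibre genes 7 were lower, with a median of -0.04 and 1 called (Tnni2, fast troponin I). The Tnni2 call came from a probe set other than its brightest. By brightest probe set 0 of the 10 fast-fibre genes had an unadjusted limma p under 0.05. The part of endothelial, fibroblast and fibre markers in the readings of the 10 genes was not tested.

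The promoters of 4 of these genes show which carry the hexamer CACGTG, the core of the site that the lysosomal regulator Tfeb and related E-box proteins recognise. RefSeq's table (GRCm38.p6) held a window before the start site for 9 of the 10 genes, and for 7 the 250 bases before the start lay wholly outside the annotated gene. The hexamer, its own reverse complement, was present in 3 of these 7 (Bnip3, Ctsd and Lamp1) and in 6.02% of all 32851 windows of that length. Those 32851 were counted whether or not they overlapped a gene, so the 2 shares are over unlike sets. Of the windows left out for overlap, that of Ctsl held 1 copy and that of Ulk1 held 0. Map1lc3b, with the smallest p, is shown beside Bnip3, Ctsd and Lamp1. The windows run 5′ to 3′ on the gene's strand, with each CACGTG in capitals.
Bnip3 (chr7:138909507-138909756, minus strand): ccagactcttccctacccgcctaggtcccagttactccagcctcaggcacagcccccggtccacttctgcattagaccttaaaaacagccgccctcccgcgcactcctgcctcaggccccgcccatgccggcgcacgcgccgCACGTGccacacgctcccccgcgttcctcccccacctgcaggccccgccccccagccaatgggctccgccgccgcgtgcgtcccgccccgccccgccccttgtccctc
Map1lc3b (chr8:121590188-121590437, plus strand): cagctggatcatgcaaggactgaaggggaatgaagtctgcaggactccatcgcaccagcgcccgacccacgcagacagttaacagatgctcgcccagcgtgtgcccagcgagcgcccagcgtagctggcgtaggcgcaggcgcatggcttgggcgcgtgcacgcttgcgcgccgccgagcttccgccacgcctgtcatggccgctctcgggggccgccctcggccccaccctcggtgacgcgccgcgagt
Ctsd (chr7:142387828-142388077, minus strand): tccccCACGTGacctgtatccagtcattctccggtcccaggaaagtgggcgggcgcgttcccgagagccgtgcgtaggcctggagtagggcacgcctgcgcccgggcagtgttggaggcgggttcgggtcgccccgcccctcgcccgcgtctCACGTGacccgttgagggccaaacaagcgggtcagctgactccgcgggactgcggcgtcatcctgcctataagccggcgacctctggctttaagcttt
Lamp1 (chr8:13158911-13159160, plus strand): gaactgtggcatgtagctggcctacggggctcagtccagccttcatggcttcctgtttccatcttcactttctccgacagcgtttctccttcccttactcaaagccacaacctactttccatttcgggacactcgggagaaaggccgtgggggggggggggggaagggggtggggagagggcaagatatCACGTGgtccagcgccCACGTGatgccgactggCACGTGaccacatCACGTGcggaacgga
Lamp1 had 4 copies, starting 61, 45, 28 and 15 bases before its start site. Ctsd had 2, starting 245 and 98 bases before it; the nearer one lay inside the longer word TCACGTGA, which 0.785% of all windows held and no other of the 7 genes. Bnip3 had 1 copy, 108 bases before its start. The tibialis log2 differences of these 3 genes were -0.12, -0.09 and -0.40, and that of Map1lc3b, with no copy, -0.36 by its brightest probe set. The rest of the 7 genes, Sqstm1, Gabarapl1 and Lamp2, had no copy either and differed by -0.19, -0.16 and 0.24. The FoxO word GTAAACA, or its reverse complement TGTTTAC, was in 3.17% of all windows and in none of the 7. A match describes letters in the window and was not tested as a site.

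Wider lists of the pathway overlap the 10 genes and were chosen with earlier results of these data known. Without the 10 genes, 78 genes of autophagy and the lysosome were tested in MGSKO tibialis; 41 were higher and 37 lower by their brightest probe set, with a median log2 difference of 0.01. A single one was called, where 1.4% of all probe sets were: Npc1, the lysosomal membrane protein that exports cholesterol, fell. It read 769.9, 873.8, 784 and 575.1 in the WT arrays and 354.8, 369.3, 471.1 and 292.3 in MGSKO, without overlap, a difference of -0.93 (SE 0.16, limma adjusted p = 0.0293). Of 9 regulators tested, 1 was called: Mtor, the kinase that holds Ulk1 inactive when nutrients suffice, rose. It read 1628, 1298, 1392.5 and 1165 in WT and 2426, 2151, 2246 and 2610.2 in MGSKO by probe set 1417592_at (difference 0.77, SE 0.13, limma adjusted p = 0.0210), again without overlap. Its other probe set differed by 0.24 (SE 0.13, limma adjusted p = 0.416).

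Both calls were narrow. Npc1 lost its call when WT array 1, 2 or 3 or MGSKO array 1, 2 or 4 was left out (limma adjusted p from 0.0674 to 0.0966), and Mtor when WT array 2 or 3 or any 1 MGSKO array was left out (0.0566 to 0.0732). With all probe sets tested and none filtered, neither passed (limma adjusted p = 0.0760 and 0.0611).

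Other genes named by rule, those with the smallest p in each list, did not pass. Stbd1, which binds both glycogen and Gabarapl1 and serves as a receptor for glycogen, read 2063 to 3110 in MGSKO tibialis and 993.9 to 1823 in WT, without overlap. The difference was 0.93 (SE 0.19) and the limma adjusted p = 0.0531. It passed under 7 alternatives (limma adjusted p from 0.0144 to 0.0377), 1 of them without WT array 2. Atp6v1g1, a subunit of the proton pump that acidifies lysosomes, read 5648 to 6054 against 7724 to 9156, a difference of -0.47 (SE 0.10, limma adjusted p = 0.0591). Atp6v1e1, another subunit, differed by -0.38 (limma adjusted p = 0.187), and by 0.03 at its other tested probe set. Klf15, a transcription factor of muscle metabolism on the FoxO target list, read 563 to 1102.4 against 1229.5 to 2265 (difference -1.03, SE 0.24, limma adjusted p = 0.0809). Eif4ebp1, the repressor of translation that Mtor phosphorylates, differed by -0.53 (limma adjusted p = 0.0979). Of the 9 FoxO target genes tested, 8 were lower, with a median of -0.47, and none was called. Each gene is given by its probe set of smallest p, with its other tested probe sets in brackets. Among cathepsins and other proteases, Ctsb differed by -0.26 (0.08, 0.23 and -0.06) and Tpp1 by -0.22 (0.16). Among hydrolases and lipid carriers, Man2b1 differed by 0.99 and Npc2 by -0.40 (-0.21). Among initiation genes, Ulk2 differed by -0.25 (0.25 and 0.02) and Pik3c3 by -0.17. Among conjugation genes, Atg4b differed by 0.32 (0.11) and Atg10 by 0.35. The remaining Atg8 genes, Gabarap and Gabarapl2, differed by -0.04 and 0.02, and the receptor Tax1bp1 by 0.12.

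**Figure D2:**
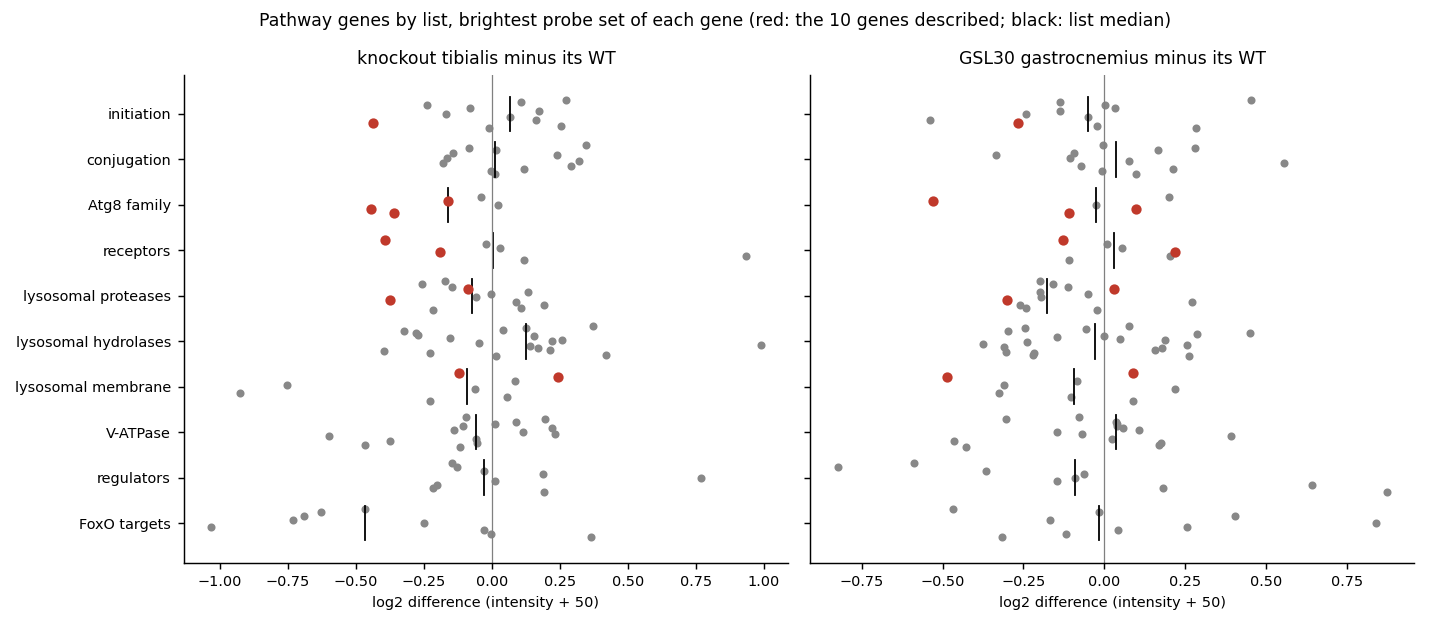
Log2 difference (mutant minus WT, intensity + 50) of each listed gene by its brightest probe set, in MGSKO tibialis (left) and GSL30 gastrocnemius (right), with the 10 genes in red and each list's median as a black bar. In tibialis most red points lie left of 0 while most list medians lie near it; the FoxO list has its median at -0.47.

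In 3-month gastrocnemius without glycogen synthase, the groups did not overlap for 1 Gabarapl1 probe set and for Ctsl, both lower, and none of the 17 probe sets passed. Of the 17, 0 were called, where 0.147% of all probe sets were; 3 had an unadjusted p under 0.05 (11.4% of all); and those 2 had groups without overlap (9.98% of all). With 3 MGSKO arrays the smallest called difference on the array was 0.86 on the log2 scale, above the largest among these genes (0.69). Taking the brightest probe sets, 7 of 10 genes were lower, with a median of -0.14.

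Gabarapl1, the Atg8 protein that also ties Stbd1 and glycogen to the membrane, read 3660, 3296, 3756, 3722 and 3962 in the 5 WT gastrocnemius arrays and 2443, 2653 and 2465.5 in MGSKO by probe set 1416418_at. No MGSKO array reached a WT array; the log2 difference was -0.54 (SE 0.12, limma adjusted p = 0.194). The brighter 1416419_s_at differed by -0.36 (SE 0.15, limma adjusted p = 0.423) with overlap. With array weights 1416418_at was called at -0.57 (limma adjusted p = 0.0288). Stbd1 differed by 0.93 in MGSKO gastrocnemius without passing (SE 0.15, limma adjusted p = 0.0758). Its differences were -0.29 in MGSKO liver and 0.20 in GSL30.

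Ctsl read 9162, 13116, 8899.5, 10768 and 8407 in WT gastrocnemius and 7748, 7556 and 7279 in MGSKO. The knockout arrays lay below all WT arrays, with a difference of -0.40 (SE 0.16, limma adjusted p = 0.411). Within each group the order of the arrays by Ctsl was their order by hepatocyte score (the mean log2 level of the 11 hepatocyte genes), which was 14.01, 15.39, 12.65, 14.71 and 11.41 in WT and 13.49, 12.01 and 11.34 in MGSKO. With that score as a covariate the Ctsl difference was -0.23, and without the arrays highest in liver transcripts -0.22. Slow-fibre markers also moved with genotype here (mean log2 level 12.35 ± 0.32 in WT, 13.29 ± 0.24 in MGSKO, with 1 of 8 called), as did endothelial ones (10.38 ± 0.19 and 10.81 ± 0.07, with 0 of 8 called), and their part was not tested.

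The other genes gave -0.23 for Bnip3, -0.08 for Sqstm1, -0.16 for Map1lc3a, -0.12 to -0.18 for the tested Map1lc3b probe sets, -0.18 for Ctsd and 0.21 for Lamp1. Ulk1 gave 0.01 (SE 0.19) by its brighter probe set and -0.60 (SE 0.46) by the other, and the 4 Lamp2 probe sets gave 0.10, -0.18, -0.67 and -0.69. A test of the knockout effect in gastrocnemius minus that in tibialis called 0 of the 17 probe sets (0.0147% of all), and 0 had an unadjusted p under 0.05 (10% of all), so a difference between the muscles was not detected. For Ulk1 that difference was 0.45 on the log2 scale.

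In liver, which expresses a different glycogen synthase gene, these genes read closest to WT. The muscle gene Gys1 was dim there in both groups, at 18.6 to 72.2 units. None of the 17 was called in MGSKO liver (0.00737% of all, a single probe set); 1 had an unadjusted p under 0.05 (8.33% of all), and 2 had groups without overlap (5.17% of all). The 10 brightest probe sets had a median of -0.03. Map1lc3a stood lowest: it read 4639, 4272, 3999 and 3733 in WT liver and 2175, 3342, 3075 and 3430 in MGSKO. The groups did not overlap, and the difference was -0.48 (SE 0.16, limma adjusted p = 0.451). Gabarapl1 (1416418_at) was the other without overlap, at -0.15 (SE 0.11). The brightest probe sets of the other 9 genes lay between -0.20 and 0.09, with overlap. Map1lc3b differed by 0.06, -0.03 and 0.08, and the effect in liver minus that in tibialis was 0.58 for its probe set 1415928_a_at (SE 0.14, limma adjusted p = 0.0603). That contrast called 0 of the 17 probe sets (0.744% of all), with 3 at an unadjusted p under 0.05 (12.5% of all): 1415928_a_at and 1415929_at of Map1lc3b, and Ctsl. Without tibialis WT array 4 the first of these passed (limma adjusted p = 0.0361).

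**Figure D3:**
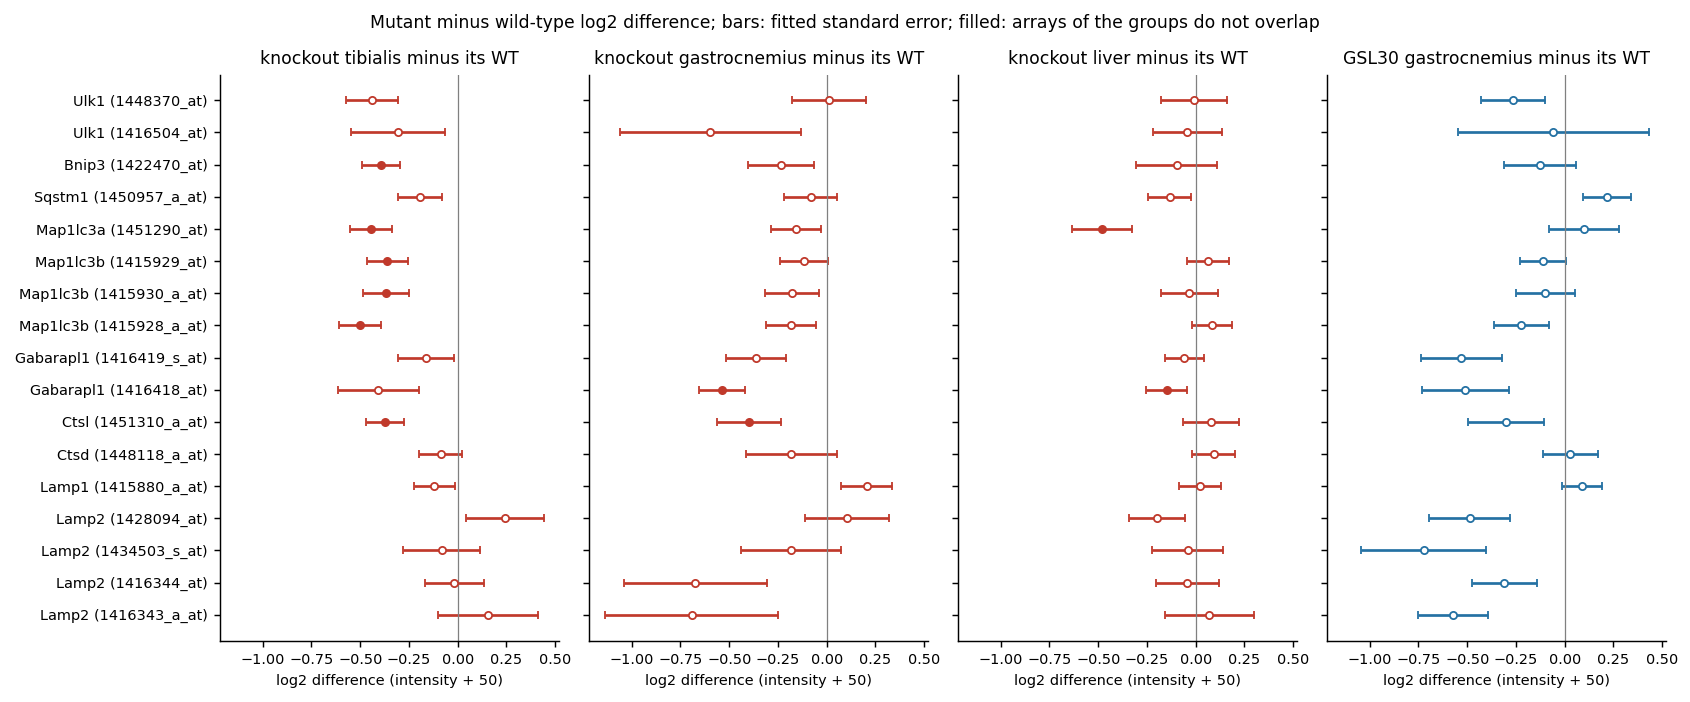
Log2 difference (mutant minus its own WT, intensity + 50) of the 17 tested probe sets in the 4 comparisons, with bars for the fitted standard error and filled points where the arrays of the 2 groups do not overlap. Filled points occur 6 times in MGSKO tibialis, 2 times each in MGSKO gastrocnemius and liver, and never in GSL30.

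In 8-month gastrocnemius that overexpresses glycogen synthase, Gabarapl1 and Lamp2 gave the lowest readings against WT, and again none of the 17 was called (4.31% of all were). There 5 had an unadjusted p under 0.05 (21.4% of all) and 0 had groups without overlap (7.38% of all). By brightest probe set 6 of 10 genes were lower, with a median of -0.12.

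Gabarapl1 (1416419_s_at) read 15992, 12563, 10009.5, 24255 and 13420.4 in WT and 10202, 10073, 9177, 12522 and 8777 in GSL30. Only WT array 3 lay among the GSL30 arrays, while WT array 4 stood far above the rest. The difference was -0.53 (SE 0.21, limma adjusted p = 0.163), and -0.35 without WT array 4. The second probe set gave -0.51 (SE 0.22).

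Lamp2 is the membrane protein whose loss causes Danon disease, a glycogen-storing myopathy. Its brightest probe set (1428094_at) read 5956, 3491, 5628, 4394 and 5624 in WT and 2210.4, 3761, 4051.5, 4677 and 3323 in GSL30. The GSL30 arrays lay mostly lower, with 3 of them above the lowest WT array. The 4 probe sets differed by -0.49, -0.72, -0.31 and -0.57, and the smallest limma adjusted p was 0.0874 (1416343_a_at), which came to 0.0394 without WT array 2. Lamp1, by contrast, gave 0.09 (SE 0.10), and Sqstm1 0.22 (SE 0.12), at 24685 to 33076 in GSL30 and 20724 to 27022 in WT. Ulk1 gave -0.27, Ctsl -0.30, Bnip3 -0.13, Map1lc3b -0.10 to -0.22, Map1lc3a 0.10 and Ctsd 0.03, all with overlap. A test of the GSL30 effect minus the knockout effect in gastrocnemius called 0 of the 17 (2.3% of all), with 0 at an unadjusted p under 0.05 (17.7% of all); age and array set cannot be told apart from genotype in it.

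A few other listed genes passed in GSL30. Without the 10 genes, 79 genes of autophagy and the lysosome were tested. Of these, 2 were called higher and 1 lower, where 4.31% of all probe sets were called. At an unadjusted limma p under 0.05 there were 11 (13.9%), against 21.4% of all probe sets. Of 9 regulators tested, 1 was called (Tsc2). Gaa, the lysosomal glycogen hydrolase, read 3382, 3040, 3034, 2071 and 2360.5 in WT and 4267, 4182, 4227, 4103.5 and 3945 in GSL30 by probe set 1436849_x_at. All GSL30 arrays were above all WT arrays; Gaa rose by 0.59 on the log2 scale (SE 0.14, limma adjusted p = 0.0351), while its other probe set gave 0.45 (SE 0.22, limma adjusted p = 0.260). Rb1cc1 (FIP200), the scaffold of the Ulk1 complex, read 1638 to 2104 in WT and 1055 to 1338 in GSL30, and so fell (difference -0.54, SE 0.12, limma adjusted p = 0.0254). Tsc2, an inhibitor of Mtor signalling, read 1618 to 2144 in WT and 3003 to 4173 in GSL30, and so rose (0.87, SE 0.13, limma adjusted p = 0.00636). Gm2a, an activator of ganglioside breakdown, rose by 1 probe set (0.91, SE 0.20, limma adjusted p = 0.0247) and gave 0.00 by its brighter one.

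Of these, Tsc2 kept its call in each fit that left out 1 array. Gaa lost it without WT array 3, 4 or 5 or GSL30 array 1, 2, 3 or 5 (limma adjusted p from 0.0567 to 0.0822). Rb1cc1 lost it without WT array 1 or 3 or GSL30 array 1, 2 or 5 (0.0514 to 0.0638), and Gm2a without GSL30 array 1, 2 or 5 (0.0567 to 0.0643). With the hepatocyte score as a covariate none of the 4 passed (limma adjusted p 0.122 to 0.197), with differences of 0.65 for Gaa (SE 0.22), -0.68 for Rb1cc1 (SE 0.18), 0.83 for Gm2a (SE 0.32) and 0.75 for Tsc2 (SE 0.20). That score was 7.66 to 8.76 in GSL30 and 8.81 to 10.69 in WT, so this fit can hardly separate it from genotype. In these arrays 7 of 8 slow-fibre genes and 5 of 8 endothelial genes were called lower in GSL30, with mean log2 levels of 11.69 ± 0.29 against 12.60 ± 0.17 and 10.19 ± 0.09 against 10.86 ± 0.15 (SD, n = 5), and the 8 hepatocyte genes tested were lower with 4 called (median -1.47). Of 8 fibroblast genes 8 were lower with 2 called, and of the 11 macrophage genes tested 8 were lower with 1 called. Their part in the readings of Lamp2, Gabarapl1 and Gaa was not tested.

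Between tissues, in contrast to the mutant comparisons, most of these probe sets were called, as were most on the array for liver. In WT liver against WT tibialis, 13 of the 17 probe sets were called (69.4% of all were), 7 higher and 6 lower. In WT 3-month gastrocnemius against WT tibialis 9 were called, all higher (27% of all). With the hepatocyte score as a covariate the 2 of Gabarapl1 passed, among 182 of all 13576 probe sets (3669 without the covariate). That score was 7.43 to 7.69 in WT tibialis and 11.41 to 15.39 in WT gastrocnemius, so this fit can hardly separate it from tissue. Without gastrocnemius WT array 2 the 9 were called again. Both comparisons use the same 4 tibialis arrays, and tissue and array set cannot be told apart. The amount of RNA, about 10 ug for liver and 5 ug for tibialis, cannot be told apart from tissue either. Gabarapl1 (1416419_s_at) read 3851, 3366, 3395 and 2644 in WT tibialis and 15234, 15699, 14833 and 14039 in WT liver. The liver arrays were all higher, with a ratio of means of 4.51 (log2 difference 2.17, SE 0.13, limma adjusted p = 1.38e-07). In gastrocnemius it read 11588 to 15418, 3.82 times the tibialis mean (limma adjusted p = 8.14e-05), a call that held with the hepatocyte score as a covariate (limma adjusted p = 0.0402).

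Ctsl read 20746, 21188, 17669 and 20721 in WT liver, against 5294 to 6047 in tibialis. All liver arrays were above it, at 3.51 times the tibialis mean (log2 difference 1.80, SE 0.11, limma adjusted p = 1.60e-07). In gastrocnemius it was 1.76 times the tibialis mean (log2 difference 0.79, limma adjusted p = 0.00394), but with the hepatocyte score as a covariate the difference was -0.08 (SE 0.35). Ulk1, Bnip3 and Sqstm1 were higher in gastrocnemius than in tibialis by 0.58, 0.63 and 0.58 on the log2 scale (limma adjusted p = 0.0263, 0.0129 and 0.00929); with that covariate they did not pass (0.118, 0.494 and 0.616), at differences of 1.46, 0.60 and 0.38 with wider errors (SE 0.41, 0.47 and 0.39).

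Other genes were lower in liver than in tibialis. Ulk1 (log2 difference -0.71 from tibialis), Map1lc3a (-0.61), Map1lc3b (-0.68 by its brightest probe set) and the protease gene Ctsd (-0.61) passed the test, each without overlap with tibialis (limma adjusted p = 0.00188, 0.000951, 0.000256 and 0.000269). The full order of WT means for Ulk1 was liver (1437 ± 207), tibialis (2390 ± 373), 3-month gastrocnemius (3600 ± 653) and 8-month gastrocnemius (4881 ± 1417, SD); the 2 gastrocnemius groups overlapped. Map1lc3a, Map1lc3b and Ctsd had the same order of means by their brightest probe sets, with tibialis and 3-month gastrocnemius overlapping for each. For Ctsd the order of these 2 groups depended on WT gastrocnemius array 2. Its log2 difference of 3-month gastrocnemius from tibialis was 0.13, but -0.04 without that array. With the hepatocyte score as a covariate it was -0.65 (SE 0.52). By Map1lc3b probe set 1415928_a_at, tibialis (6459) was above 3-month gastrocnemius (6239). By 1415930_a_at, 3-month gastrocnemius (7485) was just above 8-month gastrocnemius (7474.5). Lamp1 hardly varied: its 4 WT means spanned 15436 to 17378, a ratio of 1.13, with all groups overlapping. Sqstm1 had its lowest mean in tibialis (14589) and its highest in 8-month gastrocnemius (24767.5 ± 2522), and Bnip3 its lowest in tibialis (12746) and its highest in 3-month gastrocnemius (20001.5 ± 3815).

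Lamp2 depended on which probe set was read. By 1428094_at it was 3.08 times as high in WT liver as in tibialis and by 1434503_s_at 2.48 times, but by 1416344_at 13.7 times and by 1416343_a_at 13.1 times (limma adjusted p from 1.69e-08 to 0.000310). The level of 1416344_at was 17458, 15116.5, 12134 and 15788 in liver and 1124, 825.3, 1411 and 1062 in tibialis. That of 1428094_at was 14958, 13003, 14678 and 12468 in liver and 5189, 2762, 4883 and 5075 in tibialis. Each was higher on every liver array than on any tibialis array. The log2 ratio of 1416344_at over 1428094_at within each array was 0.13 ± 0.27 in WT liver and -1.95 ± 0.27 in WT tibialis (SD, n = 4), a difference of 2.08 with no overlap. The two-sided exact permutation p was 0.0286, the smallest that 4 against 4 arrays allow, and 0.0556 after Benjamini-Hochberg adjustment over 4 such comparisons. MGSKO liver and tibialis differed by 2.49 (exact permutation p = 0.0286, and 0.0556 after the same adjustment). This ratio was chosen after its values were seen. The adjustment does not cover that choice, so these p-values cannot serve as a test of the ratio.

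Lamp2 is known to be spliced to alternative last exons that differ between tissues; the sources used here do not give which of them each probe set reads. In WT gastrocnemius at 3 months the ratio was -0.94, 0.28, -1.25, -0.39 and -1.93 in arrays 1 to 5, in the same order as the hepatocyte scores given above. In MGSKO gastrocnemius it was -1.37, -1.56 and -1.93, again in that order. At 8 months, where the hepatocyte score was 8.81 to 10.69 in WT, it was -1.43 ± 0.29 (SD, n = 5), and WT gastrocnemius at 8 months differed from WT tibialis by 0.52 (exact permutation p = 0.0556). In GSL30 the ratio was -0.91, -0.94, -1.47, -1.56 and -1.38 in arrays 1 to 5. Their hepatocyte scores were lower than in WT, at 8.18, 7.82, 7.69, 7.66 and 8.76. Neither 8-month group followed the order of its scores. The part of liver transcripts in the ratio was not tested. The calls of 1416344_at and 1416343_a_at in gastrocnemius against tibialis (log2 differences 1.56 and 1.72) did not pass with the hepatocyte score as a covariate, at -0.97 (SE 0.47) and 0.94 (SE 1.16).

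**Figure D4:**
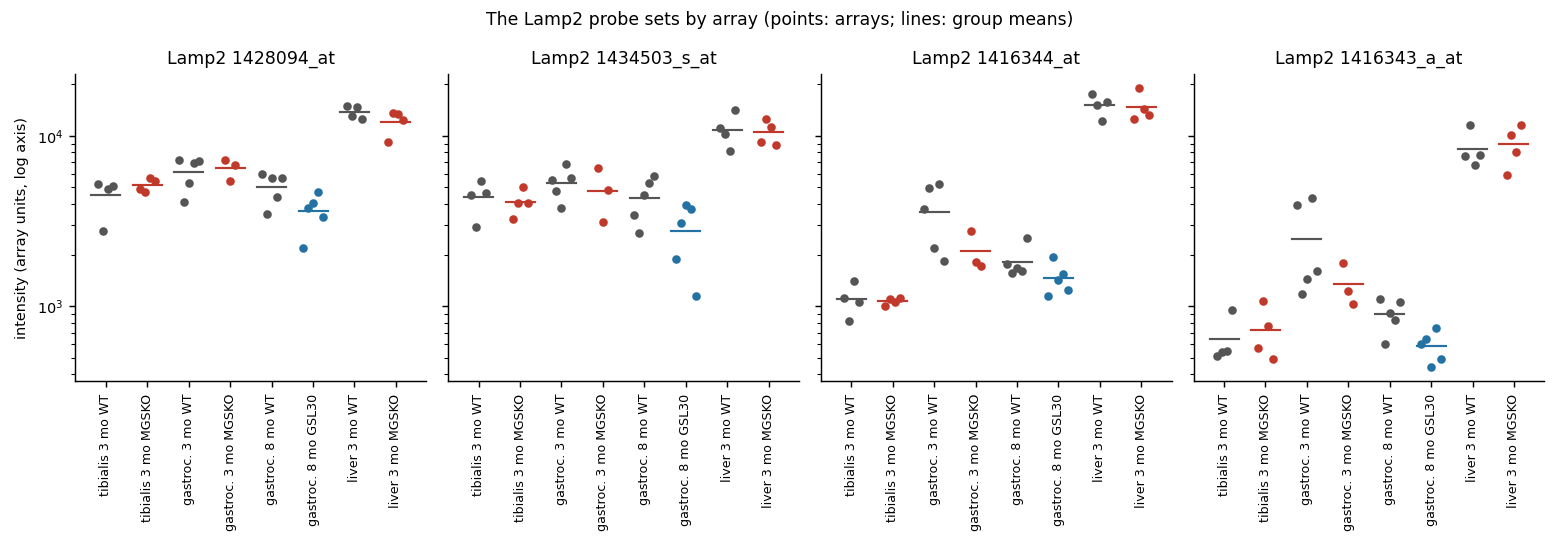
Intensity of the 4 Lamp2 probe sets on each array (points, log axis) with group means (lines) in the 8 groups (grey WT, red MGSKO, blue GSL30). From WT tibialis to WT liver the mean is 13.7 and 13.1 times as high for 1416344_at and 1416343_a_at, and 3.08 and 2.48 times for 1428094_at and 1434503_s_at.

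Some of the genes varied together from array to array. Likeness was measured as Pearson's r of log2 values over the 34 arrays, after the mean of each of 4 array sets (tibialis, liver, and gastrocnemius at 3 and at 8 months) was subtracted, among 10239 probe sets; genotype differences remain in it, and arrays of a set share their scaling. The gene most like Ulk1 was Map1lc3b (r = 0.78), followed by Klf9 (0.76) and Rora (0.76). For Map1lc3b it was Ulk1, then Klf15 (0.77) and Ppp1r15a (0.76). Bnip3 was most like Tacc2 (0.84), Ctsl like Acat1 (0.77), Gabarapl1 like Atp6v1h (0.69), Map1lc3a like Slc15a4 (0.68) and Sqstm1 like Anapc5 (0.77). Ctsd was most like Fmnl1 (0.76), Lamp1 like Ndufa7 (0.74) and Lamp2 like Ndfip1 (0.81). Among the 10 genes themselves the highest values after Ulk1 with Map1lc3b were Bnip3 with Ctsl (0.70) and Map1lc3b with Gabarapl1 (0.61), and the lowest was Sqstm1 with Lamp2 (-0.42).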

How the data were processed

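RNA of 34 samples was measured on 1 Affymetrix array each, made from about 10 ug of total RNA for liver and 5 ug for muscle, per the labels. The deposited values are probe set intensities on a linear scale, whose nearly equal trimmed means show that arrays were scaled to 1 level before deposit; how probes were combined into a probe set was not given in the sources used here. Probe sets were named through GEO's platform annotation: 20393 had 1 gene symbol, 691 several and 1606 none. The 10 genes, the gene lists and the tests were chosen with earlier results of these data known. After leaving out 64 control probe sets, log2(intensity + 50) was tested with limma 3.58.1 (lmFit and eBayes, R 4.3.3) on the 2 groups of each comparison, over the 13576 probe sets at or above the 40th percentile of mean level, two-sided, with Benjamini-Hochberg adjustment and a threshold of 0.05; contrasts of 2 effects were fitted on their 4 groups. A fold change on this scale understates that of dim probe sets. The brightest probe set of a gene was described first. Of the pathway lists, the text names each gene with a called probe set and, in MGSKO tibialis, the 2 genes of smallest p in a list with none beside the 10; a listed gene with a called probe set counts as called. Of 188 list entries 168 had a probe set. Marker scores are mean log2 levels. Alternatives were the scaling (quantile, common median), pseudocount (1, 200), filter (none, 60th percentile), all 34 arrays in 1 fit, trend and robust eBayes, array weights, 1 probe set per gene, the hepatocyte score as a covariate, leaving out the arrays highest in liver transcripts, and leaving out each array. The fit was tested on simulated data. Arrays give no counts, so their number and the spread between them limit the precision. No 2 arrays shared over 0.154% of their values.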

Additional observations from a re-analysis of the deposited data

Results flagged for a closer look

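In 6 of the 70 groups of 4 or 5 arrays examined (the brightest probe set of each gene in each group), 1 array lay far from the others of its group by Dixon's test; chance alone gives this in about 1 of 20 groups. Map1lc3b read 8623.5 on tibialis WT array 3, against 9114 to 9163 on the other 3 arrays. Lamp2 read 2762.2 on tibialis WT array 2, against 4883 to 5189. Ctsl read 17669.2 on liver WT array 3, against 20721 to 21188. Gabarapl1 read 15418.1 on 3-month gastrocnemius WT array 5, against 11588 to 12304. Ctsd read 20520.5 on 3-month gastrocnemius WT array 2, against 10628 to 12654; that array also had the highest hepatocyte score (15.39) and fast-fibre sum of its group. Ctsd read 17803 on GSL30 array 2, against 12289.5 to 13443; that array had the highest mean level of the 13 macrophage genes in its group, 10.67 against 9.87 to 10.27. The part of these markers in the Ctsd readings was not tested.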

How the results depend on the processing

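No probe set of the 10 genes was called in a mutant comparison under the settings reported, and most alternatives kept it so. In MGSKO tibialis the number of the 17 called became 1 with a pseudocount of 200, 3 with the filter at the 60th percentile, 1 with all 34 arrays in 1 fit, 4 with trend and robust estimation, 2 with array weights, and 0 to 1 when 1 array was left out. It became 1 in MGSKO gastrocnemius with array weights, and 1 in GSL30 with all 34 arrays in 1 fit or without WT array 2 (0 to 1 over arrays left out). The contrast of liver with tibialis gave 1 with a pseudocount of 200, the 60th percentile, trend and robust estimation or array weights, and 0 to 1 over arrays left out. With 1 probe set per gene, WT liver against tibialis gave 7 and WT gastrocnemius against tibialis 5, since fewer probe sets were tested. In the latter the hepatocyte covariate left 2, and 182 over the whole array. The cause of the other shifts was not tested.

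In the mutant comparisons, signs turned only for differences that passed no test. In WT gastrocnemius against WT tibialis, the called differences of Ctsl (0.79) and Lamp2 (1416344_at, 1.56) turned to -0.08 and -0.97 with the hepatocyte covariate. In MGSKO gastrocnemius, Ulk1 (0.01) gave -0.0262 with quantile scaling, -0.0714 with array weights, -0.16 with the hepatocyte covariate, -0.18 without the arrays highest in liver transcripts, and -0.16 to 0.097 over arrays left out. Ctsd (-0.18) gave 0.020 with array weights and 0.0621 without those arrays. Lamp2 (0.10) gave -0.0041 with array weights, -0.0221 without those arrays, and -0.0343 to 0.22 over arrays left out. In MGSKO liver, Lamp1 (0.02) gave -0.0257 with a common median, -0.0091 with array weights and -0.0270 to 0.0648 over arrays left out; Bnip3 (-0.10) gave 0.0088 with array weights and -0.20 to 0.12; Ulk1 gave -0.15 to 0.0778 and Ctsl -0.0203 to 0.19. In GSL30, Ctsd (0.03) gave -0.0151 with a common median, -0.0300 with the hepatocyte covariate, -0.0517 without the arrays highest in liver transcripts and -0.0683 to 0.0783 over arrays left out; Map1lc3a (0.10) gave -0.22 with the covariate, -0.0195 without those arrays and -0.0429 to 0.20.

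The number of arrays and the spread between them limit the detectable size. In simulated data a 2-fold change was recovered for 79.5% of probe sets in tibialis, 46.2% in 3-month gastrocnemius, 79.1% in liver and 87.2% in GSL30. The median SE over all probe sets was 0.15 in the tibialis comparison and 0.19 in the 3-month gastrocnemius one. No paired analysis was possible because the labels give the groups no common replicate numbers.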
